A study of Mus musculus with 10 samples.

Results

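The regions examined were less accessible in group 2 innate lymphoid cells (ILC2s) of the small intestine (SI) than in ILC2s of 4 other organs, which were bone marrow (BM), large intestine (LI), lung, and pancreas. They were selected on measured values. The ATAC-seq count of each region was divided by the median-of-ratios size factor of its library, 1 was added and the log2 was taken, and a region was kept when the lowest of the 8 BM, LI, lung, and pancreas libraries lay at least 0.3 above the higher of the 2 SI libraries. The rule kept 1638 of 50039 regions (3.27%), named SI-closed regions in what follows. "Closed" means less open than in the other 4 tissues, since the SI libraries still held reads at each of them. As the rule used SI against the rest, the difference between SI and the other tissues is a description and carries no test.

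The 10 libraries came from ILC2s of male wild-type C57BL/6 mice aged 6 weeks, with biological duplicates for each of 5 tissues and 50000 sorted cells in each library. Each LI and SI pool took 10 mice, and each pool of the other 3 tissues 16. The gates differed between tissues. BM cells were taken as lineage-negative (Lin-) cells with ST2 and CD25, and LI, lung, and pancreas cells by the same markers together with CD45 and CD127. SI cells were taken as Lin- CD45+ CD127+ cells by KLRG1 and a reduced level of Thy1, which the labels call intermediate and the methods low, without ST2 or CD25. BM cells also passed through another sorter than the rest. ST2 is the product of *Il1rl1* and CD25 that of *Il2ra*, so these genes and *Thy1* encode gate markers themselves. As no other tissue shared the SI gate, gate and tissue cannot be told apart at any region where SI is set against the rest. A library averages many cells, so fewer cells with an open region and less opening per cell cannot be told apart either.

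ILC2s are tissue-resident lymphocytes that answer epithelial alarmins such as IL-33, IL-25, and TSLP with type 2 cytokines, and ST2 is the receptor chain for IL-33. ATAC-seq marks DNA that the Tn5 transposase can reach, which includes promoters and distal enhancers held open by transcription factors. GATA3 is required for ILC2s to develop and persist, and AP-1 dimers of Fos and Jun proteins bind regulatory DNA of lymphocytes after activation.

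Sequences of SI-closed regions are shown because GATA and AP-1 letters were frequent in them, as counted further down. Each run is the central 240 bases of a region on the plus strand of GRCm38, read from the RefSeq assembly. Capitals mark matches, on either strand, to AGATAA, the letters searched for GATA factors, or to TGANTCA, those searched for AP-1. The *Diaph3* and *Maf* runs come from the widest margin of all and from another of the 3 widest. The last 5 runs come from distal regions of the 5 genes with the most SI-closed regions. They were picked for the matches in their central 240 bases, so they illustrate the motifs and are not typical. Whole regions can hold further matches.
Diaph3 at chr14:86646759-86646998: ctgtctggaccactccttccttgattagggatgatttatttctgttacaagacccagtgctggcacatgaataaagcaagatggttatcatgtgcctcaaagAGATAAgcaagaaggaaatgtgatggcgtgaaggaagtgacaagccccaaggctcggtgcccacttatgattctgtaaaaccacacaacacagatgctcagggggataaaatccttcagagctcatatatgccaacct
Maf at chr8:116021807-116022046: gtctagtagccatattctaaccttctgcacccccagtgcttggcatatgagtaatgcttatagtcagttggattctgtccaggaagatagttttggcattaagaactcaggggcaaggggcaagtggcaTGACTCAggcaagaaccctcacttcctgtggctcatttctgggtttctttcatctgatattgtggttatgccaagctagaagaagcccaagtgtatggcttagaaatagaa
Il1rl1 at chr1:40418595-40418834: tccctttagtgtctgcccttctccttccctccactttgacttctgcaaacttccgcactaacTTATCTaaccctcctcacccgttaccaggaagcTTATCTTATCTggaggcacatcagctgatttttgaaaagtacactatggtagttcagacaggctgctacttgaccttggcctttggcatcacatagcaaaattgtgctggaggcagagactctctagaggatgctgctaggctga
Mdfic at chr6:15768027-15768266: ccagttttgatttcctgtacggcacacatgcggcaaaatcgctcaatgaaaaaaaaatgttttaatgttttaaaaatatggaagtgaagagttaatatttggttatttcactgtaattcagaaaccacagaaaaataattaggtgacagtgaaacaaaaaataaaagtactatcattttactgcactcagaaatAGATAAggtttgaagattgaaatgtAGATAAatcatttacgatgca
Bach2 at chr4:32280655-32280894: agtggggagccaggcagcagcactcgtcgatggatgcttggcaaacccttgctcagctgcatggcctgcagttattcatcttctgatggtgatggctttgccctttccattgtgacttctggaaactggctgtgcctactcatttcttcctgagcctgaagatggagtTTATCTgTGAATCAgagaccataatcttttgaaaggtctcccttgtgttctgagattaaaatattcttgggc
Krr1 at chr10:111858544-111858783: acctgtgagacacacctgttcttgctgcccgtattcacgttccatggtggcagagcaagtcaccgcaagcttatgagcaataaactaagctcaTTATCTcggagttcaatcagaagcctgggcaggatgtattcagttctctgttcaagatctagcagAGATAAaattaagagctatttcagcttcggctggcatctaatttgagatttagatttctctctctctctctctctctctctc
Ramp1 at chr1:91193306-91193545: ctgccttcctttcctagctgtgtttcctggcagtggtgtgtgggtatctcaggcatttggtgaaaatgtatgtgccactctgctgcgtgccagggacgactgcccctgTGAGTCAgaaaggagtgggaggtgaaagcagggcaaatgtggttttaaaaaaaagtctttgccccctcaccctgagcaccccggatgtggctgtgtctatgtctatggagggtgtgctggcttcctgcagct

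At the *Il1rl1* region with 3 GATA matches, which lies 10.9 kb upstream of a transcription start site (TSS), the normalised counts were 51.8 and 53.6 in SI, 122 and 154 in LI, 494 and 345 in BM, 353 and 366 in lung, and 388 and 223 in pancreas. At the *Mdfic* region with 2 GATA matches, in intron 3, they were 34.5 and 29.2 in SI, 149 and 158 in LI, 134 and 151 in BM, 147 and 185 in lung, and 248 and 214 in pancreas. The *Bach2* run shows a match of each kind, and its whole region holds 2 AP-1 matches. That region stood at 36.5 and 50.9 in SI, 215 and 189 in LI, 114 and 95.8 in BM, 151 and 166 in lung, and 295 and 288 in pancreas. In each of the 3 regions the SI libraries lay below the other 8, as the rule demands, and LI or BM was the next lowest tissue.

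Total counts per library lay between 10282987 and 32797872, and replicates of a tissue differed by more than counting noise. Promoter regions of ILC2 markers held reads in each tissue, but single markers differed. The *Klrg1* region 42 bp before a TSS held 70.8 and 55.8 normalised counts in BM against 191 to 452 elsewhere. The *Il1rl1* region 57 bp before a TSS held 33.6 and 10.2 in SI against 76.3 to 302. Summed over the 8 of 10 marker genes with a region at a TSS, their normalised counts were 5210 to 6140 in SI and 5330 to 7860 in the other tissues, and the 2 *Il1rl1* start regions were the only ones of this list among the SI-closed regions. No TSS region was present for markers of B cells (4 genes) or of mast cells and basophils (4 genes). The T cell list had *Cd3e* and *Cd3g* at a summed 119 to 265 in all libraries, with 219 and 238 in SI. *Prf1* (NK cells), with 179 and 183 in SI against 19.7 to 149 elsewhere, *Spi1* (myeloid cells), with 302 to 480 against 157 to 340, *Kit* (ILC3s), with 1120 to 1190 against 944 to 1480, and *Epcam* (epithelium), with 195 and 389 against 94.1 to 229, were the other markers with a region. Their part in the results was not tested.

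SI-closed regions were open in the other 4 tissues, with medians not far from those of all regions, and low in SI. By library, their median normalised count was 47.0 and 44.8 in SI, against 127 and 124 in LI, 136 and 148 in BM, 162 and 163 in lung, and 188 and 183 in pancreas. Over all 49981 tested regions the medians lay between 128 and 153, and the SI libraries were inside that range at 150 and 143. At the median SI-closed region, SI stood at 32.2% of the mean of the other 4 tissues, with an interquartile range from 22.5% to 42.2%. SI was under 25% of that mean at 504 regions and under 10% at 55. The median log2 difference to SI was 1.30 for LI, 1.35 for BM, 1.55 for lung, and 1.82 for pancreas. SI was lower than each of the other 4 tissues at an adjusted p under 0.05 at 850 of 1638 regions, where 1.76% of all tested regions were. The rule used this contrast, so nothing is read from that count.

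**Figure D1:**
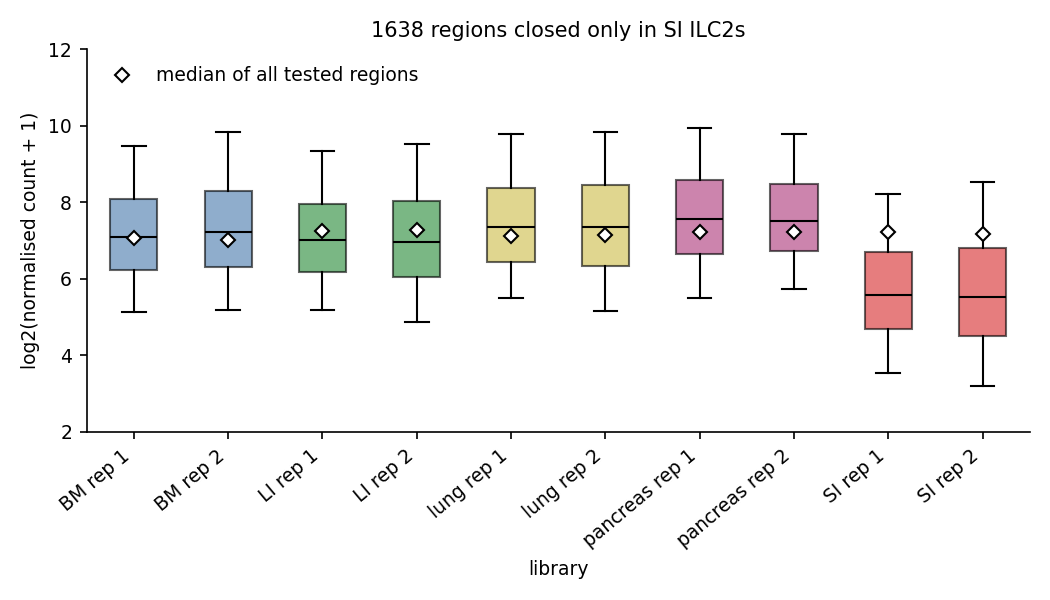
Normalised counts of the 1638 SI-closed regions in each library, as log2(normalised count + 1). Boxes span the quartiles, the line is the median, whiskers reach the 5th and 95th percentiles, and diamonds give the median of all tested regions, which sits above the box of both SI libraries and inside the box of each other library.

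At the edge of the rule the separation was narrow. The 2 regions just inside, in intron 19 of *Map3k15* (nearest TSS *Pdha1*) and 7.02 kb upstream of *Ttc26*, had a margin of 0.301. The *Pdha1* region held 42.2 and 58.3 normalised counts in SI against 72.1 to 177 in the other libraries. The 2 regions just outside, in introns of *Klhl3* and *Fbxl21*, had margins just under 0.3, and the *Fbxl21* region held 92.1 and 85.5 in SI against 114 to 307 elsewhere. The margin reached 1 at 290 regions and 2 at 21.

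The widest margin of all, 3.22, belonged to an intergenic region 494 kb from the TSS of *Diaph3*, a formin that nucleates actin filaments (chr14:86646611-86647145). It held 22.1 and 17.0 normalised counts in SI, 227 and 215 in LI, 623 and 955 in BM, 880 and 492 in lung, and 1304 and 1415 in pancreas. SI stood at 2.55% of the mean of the other tissues. The *Diaph3* region was also lower in LI than in lung, by 1.61 on the log2 scale (SE 0.269, edgeR adjusted p = 0.00127). A region in intron 2 of *Fmn1*, another formin, followed with 271 to 1033 normalised counts in the other 8 libraries and 38.4 and 40.0 in SI. The next lay 315 kb upstream of *Maf*, the gene of the transcription factor c-Maf, with 321 to 452 in BM and pancreas, 284 and 294 in lung, 103 and 82.4 in LI, and 12.5 and 10.9 in SI. LI was below BM there by 1.93 on the log2 scale (SE 0.253, edgeR adjusted p = 5.35e-05).

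A region in intron 3 of *Runx2*, a transcription factor of the Runt family, was the most open of the 12 in SI, with 81.6 and 111 normalised counts against 679 to 1181 elsewhere. None of the 6 comparisons among the other 4 tissues passed there, although the joint test did (edgeR adjusted p = 0.0422). At *P2ry1*, an ADP receptor, the values were 67.9 to 311 against 12.5 and 11.5 in SI. In intron 50 of *Dock9*, an exchange factor for Cdc42 (nearest TSS *Slc15a1*), LI stood at 61.0 and 59.2 and SI at 10.6 and 11.5, below the 128 to 230 of the other 6 libraries. Of the remaining 6 regions, 5 lay 9.57 kb upstream of *Il1rl1*, in introns of *Osbpl6* and *Slc4a4*, and in introns of the noncoding genes *A330093E20Rik* and *Gm4610* (nearest TSS *Trim36* and *Bcar3*). Across the 12 regions the other 4 tissues exceeded SI by 8.34 to 39.1 times, and pancreas held the highest tissue mean at 9 of them.

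**Figure D2:**
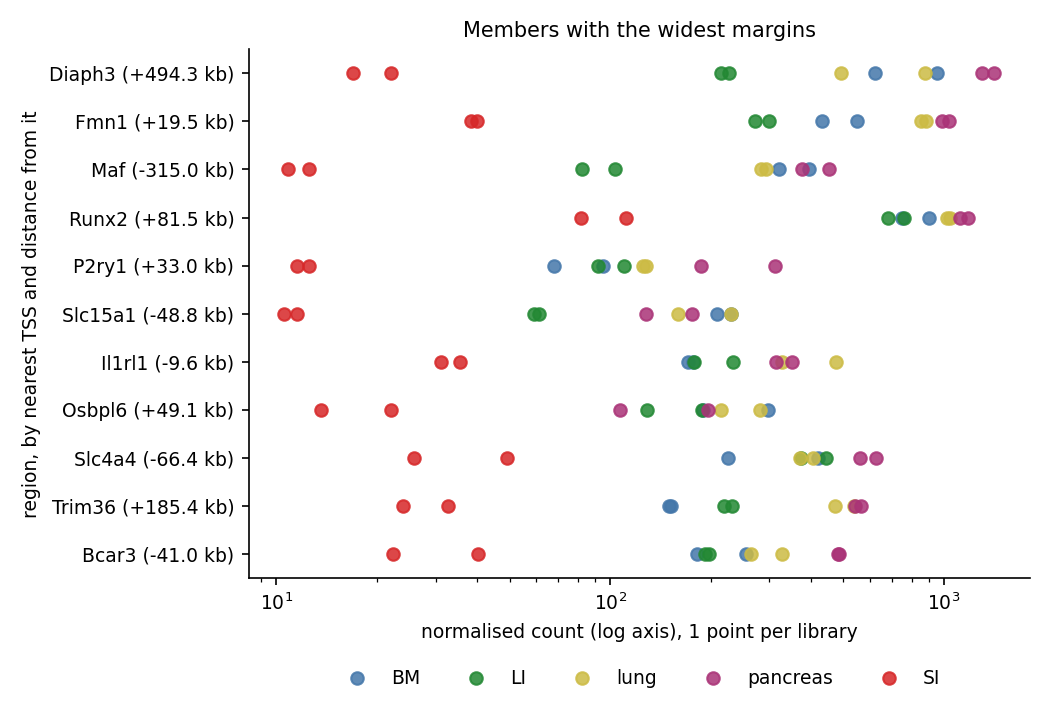
Normalised counts (log axis) of 11 of the 12 SI-closed regions with the widest margins, with 1 point for each library and colours for tissues. The SI points lie left of the other 8 at each region, and at Diaph3, Fmn1, Maf, and Slc15a1 the LI points lie between SI and the rest.

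The order of BM, LI, lung, and pancreas was not used by the rule, although all 4 had to lie above SI, and all 1638 regions were tested. Pancreas was the most open of the 4 at 711 SI-closed regions (43.4%, against 20.6% of all tested regions) and LI at 126 (7.69%, against 24.9%). LI was the least open of the 4 at 701 (42.8%, against 25%) and pancreas at 84 (5.13%, against 20.2%). A difference among the 4 tissues passed an adjusted p under 0.05 in edgeR's quasi-likelihood test at 815 SI-closed regions (49.8%), against 35.9% of all 49981 tested regions. Promoters made up 4.52% of SI-closed regions and 19.0% of all tested regions. Shares called outside promoters alone were not computed, here or in the comparisons below.

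LI was lower than lung at 275 SI-closed regions (16.8%), where 2.72% of all tested regions were called, and higher at 42 (2.56%), where 8.18% were. LI was lower than pancreas at 228 (13.9%, all tested 1.25%) and higher at 3 (0.183%, all tested 2.01%). The median log2 differences over SI-closed regions were -0.28 and -0.47, and they stayed negative under each scaling tried. LI was lower than BM at 300 (18.3%, all tested 12.6%) and higher at 153 (9.34%, all tested 18.3%), with a median log2 difference of -0.09. With the trends in GC content and width taken out, the LI and BM counts were 425 lower and 81 higher. The 3 regions higher in LI than in pancreas became 0 without LI replicate 2 or pancreas replicate 1, 5 without either SI replicate, and 1 without any of the other 6 libraries. The LI and BM counts were 177 lower without LI replicate 2 and 186 lower without BM replicate 2, and 66, 97, and 100 higher without BM replicate 1, BM replicate 2, and LI replicate 2. The regions lower in LI than in lung numbered 137 without LI replicate 1, 157 without LI replicate 2, 160 without lung replicate 1, and 99 without lung replicate 2, and those higher 15, 26, 13, and 4. Those lower in LI than in pancreas numbered 86, 39, 31, and 78 without LI replicate 1, LI replicate 2, pancreas replicate 1, and pancreas replicate 2. The numbers thus depended on individual libraries, while the lower calls outnumbered the higher ones in each of these settings. Shares of all tested regions are given for the main fit only. Counts in the other settings, here and below, therefore cannot be set against all regions.

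BM was lower than pancreas at 412 SI-closed regions (25.2%, all tested 14.3%) and higher at 68 (4.15%, all tested 9.89%). The BM and pancreas counts became 283 lower and 124 higher with the GC content and width trends taken out, 172 lower and 27 higher without BM replicate 1, 287 and 39 without BM replicate 2, 271 and 28 without pancreas replicate 1, and 221 and 26 without pancreas replicate 2. BM was lower than lung at 283 (17.3%, all tested 11.5%) and higher at 125 (7.63%, all tested 7.56%). That order reversed to 188 lower and 268 higher with the trends removed and stood at 418 lower and 75 higher with scaling by library size. It was 134 lower and 58 higher without BM replicate 1, 178 and 57 without BM replicate 2, 203 and 73 without lung replicate 1, and 123 and 29 without lung replicate 2. Lung was lower than pancreas at 138 (8.42%, all tested 4.2%) and higher at 43 (2.63%, all tested 1.62%), but with scaling by library size it was lower at 66 and higher at 84, and without lung replicate 2 it was lower at 17 and higher at 5. Lung was lower at 55 and higher at 25 without lung replicate 1, at 52 and 14 without pancreas replicate 1, at 24 and 15 without pancreas replicate 2, and at 207 and 68 without SI replicate 1. The median log2 difference over all tested regions for LI against lung, BM against lung, and lung against pancreas was 0.0093, 0.041, and -0.0039 with TMM. It was -0.25, -0.17, and 0.25 with scaling by library size, and 0.17, 0.27, and -0.20 with the trends removed.

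**Figure D3:**
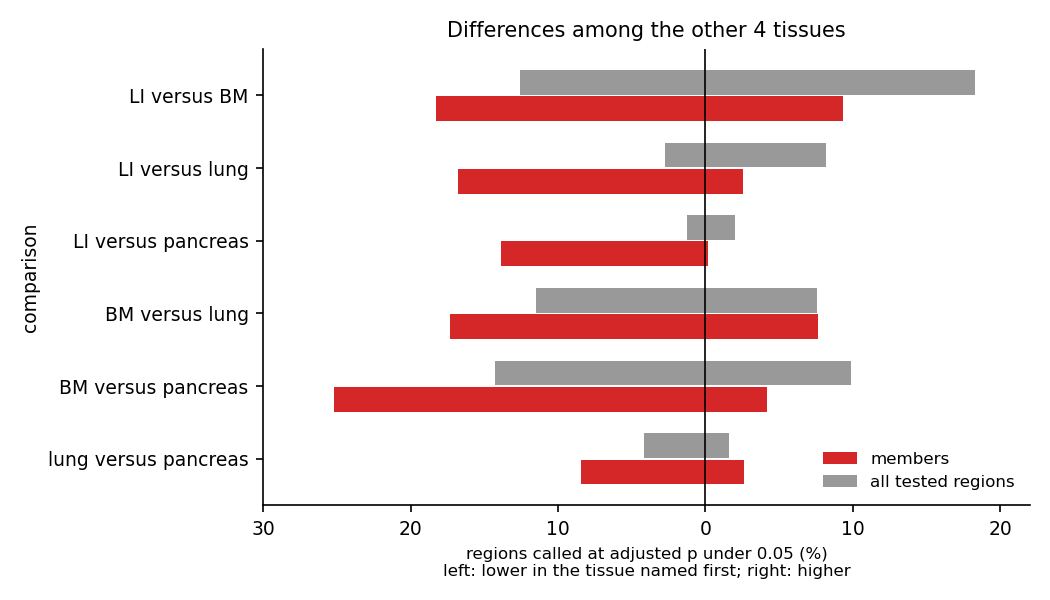
Share of SI-closed regions (red) and of all tested regions (grey) called lower (left) or higher (right) in the tissue named first, at an adjusted p under 0.05, in the 6 comparisons among BM, LI, lung, and pancreas. LI was lower than lung at 16.8% and lower than pancreas at 13.9% of SI-closed regions, where 2.72% and 1.25% of all tested regions were called.

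The gene lists used from here on were chosen with earlier results of these data known, so their shares are descriptions and carry no test. SI-closed regions were frequent in the list of IL-1 family receptors. Of the 53 regions nearest to the 7 genes of this list, 24 were SI-closed (45.3%), against 3.27% of all regions. *Il1rl1* accounted for 15 of them, out of its 19 regions. *Il18r1* and *Il18rap*, the chains of the IL-18 receptor, held 2 of 6 and 2 of 9, *Il1rl2*, a chain of the IL-36 receptor, 2 of 5, and *Il1r2*, a decoy receptor for IL-1, 2 of 7. *Il1r1*, the signalling receptor for IL-1, held 1 of 5, and *Il1rap*, the remaining gene of the list, 0 of 2. Along chromosome 1 a stretch of 188 kb (chr1:40355318-40543191) from *Il1rl2* to *Il18rap* contained 21 SI-closed regions among 35. ST2 was part of the gate of the 4 other tissues and not of SI, so these counts at *Il1rl1* cannot be told apart from the gate.

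The SI level at the 15 *Il1rl1* regions ranged from 4.81% to 36.9% of the mean of the other tissues, with a median of 17.3%. Both start regions of *Il1rl1* were included. The upstream one, 258 bp before its TSS, held 56.6 and 59.0 normalised counts in SI, 110 and 146 in LI, 447 and 263 in BM, 302 and 476 in lung, and 544 and 296 in pancreas. The downstream one, 57 bp before the other TSS, held 33.6 and 10.2 in SI, 91.5 and 97.8 in LI, 84.4 and 76.3 in BM, 185 and 247 in lung, and 302 and 267 in pancreas. The tissues were ordered differently at the 2 starts, with BM near lung and pancreas at the upstream start and near LI at the downstream start. The widest *Il1rl1* margin, 2.23, was 9.57 kb upstream (35.5 and 31.2 in SI, 178 and 233 in LI, 171 and 177 in BM, 328 and 475 in lung, and 351 and 313 in pancreas). In exon 8, which is part of the 3′ UTR of a transcript, lung and pancreas stood at 205 to 336, BM and LI at 92.1 to 134, and SI at 21.1 and 16.3.

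A region in intron 8 of *Il1rl1* separated BM most from lung and pancreas. It held 12.5 and 9.50 normalised counts in SI, 103 and 154 in LI, 29.1 and 21.4 in BM, 289 and 470 in lung, and 427 and 332 in pancreas. BM was lower than lung by 3.92 on the log2 scale (SE 0.346, edgeR adjusted p = 3.34e-06) and lower than LI, which exceeded BM by 2.39 (SE 0.347, edgeR adjusted p = 0.000123). Of the 15 *Il1rl1* regions, 9 were lower in LI than in lung (all tested 2.72%), 10 lower in LI than in pancreas (1.25%), 9 lower in BM than in lung (11.5%), and 10 lower in BM than in pancreas (14.3%), with none higher in these 4 comparisons. LI exceeded BM at 3 (all tested 18.3%) and fell below it at 3 (12.6%), which is near those shares. Lung exceeded pancreas at 1 (all tested 1.62%) and fell below it at 1 (4.2%). The median log2 difference over the 15 regions was -0.94 for LI against lung and -1.14 for BM against lung, and it stayed negative, from -0.71 to -1.34, with the 4 ways of scaling in both comparisons. For LI against BM it was 0.27 and turned to -0.16 once trends in GC content and width were removed.

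**Figure D4:**
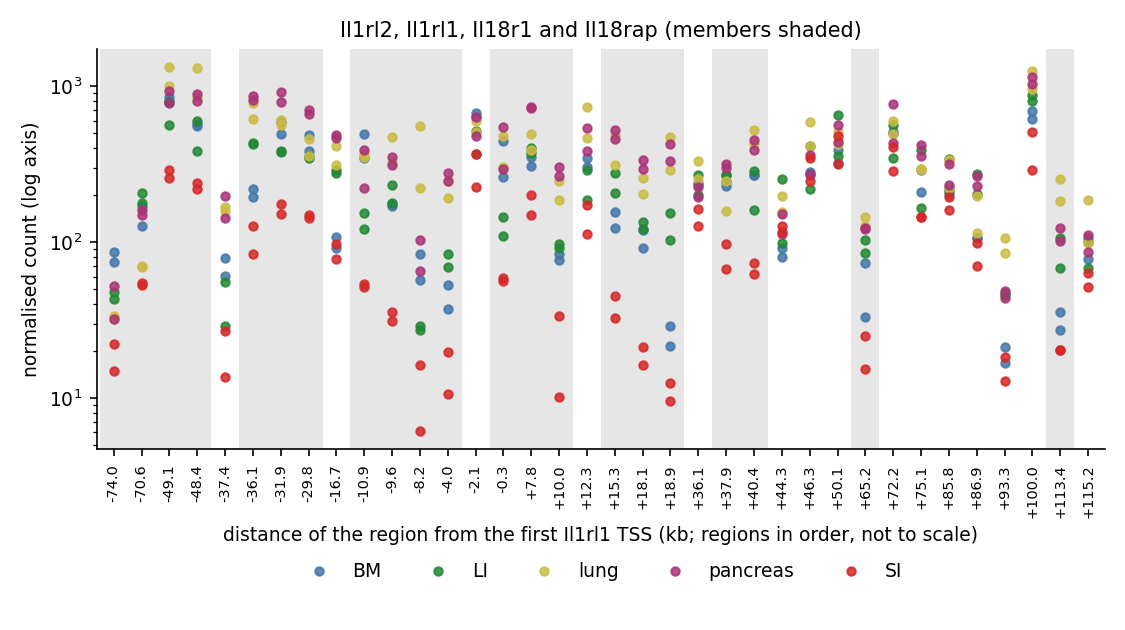
Normalised counts (log axis) of the regions from Il1rl2 to Il18rap, in order along the chromosome, labelled by distance from the first Il1rl1 TSS and not drawn to scale, with 1 point for each library. Shaded columns are the 21 SI-closed regions, where both SI points lie lowest, while between +44.3 kb and +50.1 kb, inside Il18r1, the SI points lie among the others.

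Within this stretch the 4 *Il1rl1* regions that missed the rule had margins from -0.07 to 0.11, so the higher SI library was close to the lowest of the other 8. The start of *Il18r1* missed it by little, with a margin of 0.26 and 127 and 164 normalised counts in SI against 196 to 331 elsewhere. Further into *Il18r1*, regions in introns 3 to 5 had margins of -0.56 to -0.66 with SI at 84.5% to 87.0% of the other tissues. In intron 2 of *Il18r1*, SI-closed values were 62.4 and 73.9 in SI against 161 to 523 elsewhere.

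The list of receptors for lipid mediators and neuropeptides came next among the 8 lists, with 20 of 186 regions (10.8%). It also holds genes that are not such receptors, among them *Alox5ap* and *Adora2a*, and *Ramp1* gave 9 of the 20 regions. *Ramp1*, the accessory chain that makes a receptor for the neuropeptide CGRP together with *Calcrl*, had 9 of its 10 regions SI-closed, 8 of them inside the gene and 1 at its promoter. Its widest margin, in intron 1 (chr1:91193167-91193684), held 70.0 and 75.3 normalised counts in SI, 231 and 255 in LI, 586 and 705 in BM, 805 and 850 in lung, and 845 and 672 in pancreas. LI was below lung there by 1.74 on the log2 scale (SE 0.206, edgeR adjusted p = 0.000117). *Calcrl* itself held 3 of 9 regions, and *Calca*, which encodes CGRP and stands in the list of type 2 effectors, 2 of 6. *Ptger2*, a prostaglandin E2 receptor, held 3 of 15. *Adora2a*, *Alox5ap*, *Cysltr1*, and *Cysltr2* held 1 each. Over the 20 regions of this list, 4 were lower in LI than in lung (SI-closed regions 16.8%, all tested 2.72%), 4 lower in BM than in lung (17.3% and 11.5%), and 6 lower in BM than in pancreas (25.2% and 14.3%), which is near the shares of all SI-closed regions.

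ILC2 transcription factors held 50 SI-closed regions among 745 (6.71%), at 18 of 29 genes (62.1%, against 7.30% of all genes). These genes had 25.7 regions each on average, against 3.42 for all genes. *Bach2*, a repressor that can compete with AP-1 at its sites, led with 11 of 29 regions, all of them intergenic upstream of the gene. The widest of them, 108 kb upstream, held 27.8 and 21.7 normalised counts in SI, 144 and 198 in LI, 110 and 119 in BM, 116 and 110 in lung, and 492 and 378 in pancreas. BM was lower than pancreas at 9 of the 11 *Bach2* regions (SI-closed regions 25.2%, all tested 14.3%) and higher at none. *Bhlhe40* held 6 of 43 regions, with its widest margin inside intron 45 of the neighbouring *Itpr1* (207 to 831 in the other tissues, 58.5 and 25.8 in SI), and *Rora*, required for ILC2s, held 6 of 50, all within its intron 1. *Gata3* and *Id2*, which define the lineage, held 4 of 65 and 4 of 50, none of them at a promoter. *Satb1* held 4 of 21, *Bcl11b*, *Klf2*, and *Klf6* 2 each, and *Ets1*, *Gfi1*, *Ikzf2*, *Lef1*, *Maf*, *Pparg*, *Runx1*, *Zbtb16*, and *Zeb1* 1 each. The *Satb1* region with the widest margin was low in LI too, at 61.0 and 75.5 normalised counts against 195 to 368 in BM, lung, and pancreas and 29.8 and 23.1 in SI, and LI was below pancreas there by 2.38 on the log2 scale (SE 0.267, edgeR adjusted p = 0.000253).

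The remaining lists of the 8 held shares of 3.65% to 6.62%, against 6.71% for the transcription factors and 3.27% of all regions. Other cytokine receptors had 10 of 151 regions (6.62%), at *Il10ra* (4), *Il6ra* (2), *Il2ra*, *Il4ra*, *Il7r*, and *Tgfbr2*. The widest of these, in intron 9 of *Il6ra*, held 254 and 407 normalised counts in SI, 763 and 793 in LI, 2065 and 2264 in BM, 1657 and 1571 in lung, and 1536 and 1260 in pancreas, and LI was below BM by 1.44 on the log2 scale (SE 0.214, edgeR adjusted p = 0.000146). Trafficking and adhesion genes had 12 of 225 (5.33%), among them *Cxcr4* (5), *Cd44*, *Itga4*, and *Ccr8*. The *Ccr8* region was a promoter and among the most open, at 1067 and 1294 in SI against 1919 to 2875.

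Type 2 effector genes had 7 of 139 regions (5.04%), at *Arg1* (3), *Calca*, and *Il2*, and none at the genes of IL-4, IL-5, or IL-13. The widest, 4.22 kb upstream of *Arg1*, the arginase of ILC2 metabolism, held 27.8 and 31.9 normalised counts in SI, 188 and 185 in LI, 63.1 and 93.0 in BM, 248 and 403 in lung, and 223 and 288 in pancreas. BM was below lung there by 2.07 on the log2 scale (SE 0.304, edgeR adjusted p = 0.000168). AP-1 and NF-kappaB genes had 10 of 206 (4.85%), at *Tnfaip3* (4), *Nfkb1* (2), *Fos*, *Fosb*, *Fosl2*, and *Jun*, with 95.1 to 223 at the widest *Tnfaip3* region in the other tissues and 28.8 and 46.1 in SI. Costimulation and checkpoint genes had 5 of 137 (3.65%), at *Icos* (3), *Pdcd1*, and *Pdcd1lg2*. The widest of these lay 76.9 kb downstream of the *Icos* start, with 82.5 and 107 in SI, 634 and 693 in LI, 631 and 660 in BM, 509 and 522 in lung, and 435 and 456 in pancreas, and a difference among the 4 other tissues did not pass the joint test there (edgeR adjusted p = 0.0792). Of the lists for other cell types, the regions of T cell, B cell, NK and ILC1, myeloid, mast cell and basophil, and epithelial genes, which numbered 6, 1, 19, 5, 3, and 13, held 0 SI-closed regions. The ILC3 list held 1 of 27 (3.7%), at *Kit* (1 of 23). Over all regions the share was 3.27%, and with so few regions in each list a count of 0 is near it.

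Outside the lists, *Mdfic*, which encodes a regulator of transcription factors, had more SI-closed regions than any other gene, with 17 of its 27. SI stood at 10.1% to 43.9% of the mean of the other tissues at them, and 15 of a stretch of 19 regions over 77.5 kb were SI-closed. Of the 17 *Mdfic* regions, 8 were higher in LI than in BM (all tested 18.3%) with none lower, and 11 were lower in BM than in pancreas (all tested 14.3%) with none higher. The opposite order was seen upstream of *Krr1*, a ribosome biogenesis factor, with 9 of 13 regions SI-closed. There, 8 of 9 were lower in LI than in BM (all tested 12.6%) and none was higher. A region 48.3 kb upstream of *Krr1* held 48.0 and 37.3 normalised counts in SI, 153 and 201 in LI, 726 and 906 in BM, 282 and 290 in lung, and 323 and 334 in pancreas. With removal of trends in GC content and width, the median log2 difference of LI against BM went from -1.01 to -1.42 at *Krr1* and from 0.70 to 0.25 at *Mdfic*.

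SI-closed regions often lay next to each other. The neighbour on each side of each SI-closed region was counted, so the same region can count more than once. Of these 3275 neighbours, 634 (19.4%) were SI-closed too, against 3.27% of all regions. With gaps of up to 50 kb, 87 stretches of at least 3 held 383 of the 1638 regions (23.4%), while 903 regions stood alone. The longest runs after the IL-1 receptor stretch and *Mdfic* were 12 of 14 regions at *Ramp1* and *Ube2f* over 62.1 kb, 11 of 20 at *Bach2* over 126 kb, 10 of 10 between *Phlda1* and *Krr1* over 205 kb, and 8 of 14 at *Tiam1*, an exchange factor for Rac, over 168 kb. In all, 1069 genes were nearest to an SI-closed region, 751 of them to 1 alone and 29 to at least 5.

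The gene lists that the study drew from its scRNA-seq were set against the regions, as a count with no test. Of the 30 genes listed as lower in SI ILC2s at the mRNA level, 15 had an SI-closed region, with 63 of their 236 regions (26.7%). These were *Il1rl1*, *Mdfic*, *Ramp1*, *Cdc42ep3*, *Ctla2a*, *Fosb*, *Klf2*, *Klf6*, *Rgcc*, *S100a10*, *Serpinb1a*, *Thy1*, *Tnfsf11*, *Tspo*, and *Vim*. Of the 36 genes listed as higher in SI and with a region, 1 had an SI-closed region (*Nrip1*, 2 of 45), so that 2 of 237 regions (0.84%) were SI-closed. Over all genes 7.30% had an SI-closed region, and the genes of both lists had more regions each (7.87 and 6.58) than the average gene (3.42). *Mdfic*, *Il1rl1*, and *Ramp1* gave 17, 15, and 9 of the 63 regions, and *Il1rl1* and *Thy1* encode gate markers. The scRNA-seq cells were also sorted by ST2 and CD25 in the other tissues and by KLRG1 and low Thy1 in SI. Gate and tissue thus cannot be told apart in these mRNA lists either.

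SI-closed regions were mainly distal. Promoters, defined as the 1000 bp before a TSS and the 100 bp after it, made up 74 of 1638 (4.52%), against 19.0% of all tested regions. Intragenic regions made up 50.4% (all tested 48.2%) and intergenic regions 45.1% (all tested 32.8%). The median distance to a coding TSS was 31.4 kb, against 12.7 kb for all tested regions and 19.6 kb for those outside promoters. At 326 regions (19.9%) it exceeded 100 kb, where 10.2% of all tested regions did. Regions closed only in BM by the same rule were as rarely promoters (4.42% of 3234), and those closed only in lung (6.26% of 1023) or most open in SI (5.40% of 1204) came near, while the shares were 7.01% for pancreas and 10.1% for LI. Median GC content was 46.5%, against 49.8% of all tested regions and 48.2% outside promoters, and median width was 530 bp against 532 bp.

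GATA and AP-1 letters were frequent in SI-closed regions. AGATAA was found on either strand in 764 of 1638 (46.6%), against 27.0% of all tested regions and 30.6% of those outside promoters, whose median width was 526 bp. It occurred in 2 or more copies in 15.0% of SI-closed regions, against 6.00% of all. TGANTCA was found in 638 (38.9%), against 25.1% of all and 28.4% outside promoters, and both motifs in 303 (18.5%), against 8.27% of all. The regions closed only in BM had the opposite balance, with GATA letters in 30.6% and AP-1 letters in 47.2%. Regions most open in SI held GATA letters in 27.2% and AP-1 letters in 21.2%, and those closed only in lung 38.1% and 32.3%.

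By margin, GATA letters were found in 44.6% of the 801 regions with margins of 0.3 to 0.6, in 47.0% at 0.6 to 1 and 51.7% at 1 and over. The difference was also present within ranges of GC content. Outside promoters and at 46% to 50% GC, 43.5% of 418 SI-closed regions held GATA letters against 32.8% of tested regions, and above 50% GC 29.2% of 414 against 17.7%. Of the GATA matches within 240 bp of the centre, 56.4% fell within 100 bp in SI-closed regions outside promoters and 49.3% in all tested regions outside promoters, where even spacing would give 41.7%. For AP-1 these shares were 63.0% and 62.7%.

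Of the other 14 strings searched on both strands, RUNX letters (TGTGGTT) were found in 23.5% of SI-closed regions against 18.8% of all, and STAT letters (TTCNNNGAA) in 17.9% against 15.0%. Outside promoters the gaps were narrower, at 23.8% against 21.3% and 17.8% against 15.9%. RUNX letters were found in 27.4%, 27.7%, 23.1%, and 21.6% of regions closed only in BM, pancreas, lung, and LI, and in 29.2% of those most open in SI. KLF and SP letters (CCCGCCC) were rarer, at 7.33% against 23.5%, also outside promoters (5.82% against 14.6%), as were ETS letters (CCGGAAG), at 4.27% against 10.0%, and CTCF letters (CCAGNNGGC), at 10.9% against 15.3%. The shares for ROR (AGGTCA, 32.5% against 30.7%), E-box (CAGCTG, 28.8% against 29.6%), SMAD (GTCTGG, 30.4% against 31.0%), IRF (GAAANNGAA, 17.8% against 16.8%), and TCF and LEF (TTCAAAG, 12.6% against 10.6%) were close to those of all tested regions. AHR (TNGCGTG) had 4.82% against 9.19%, NF-kappaB (GGGANTTTC) 3.17% against 3.31%, NR4A (AAAGGTCA) 3.11% against 3.31%, and T-box (AGGTGTGA) 1.22% against 2.43%. NR4A matches also hold the ROR letters. A match to such a short string is a description of the sequence and not a bound site.

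**Figure D5:**
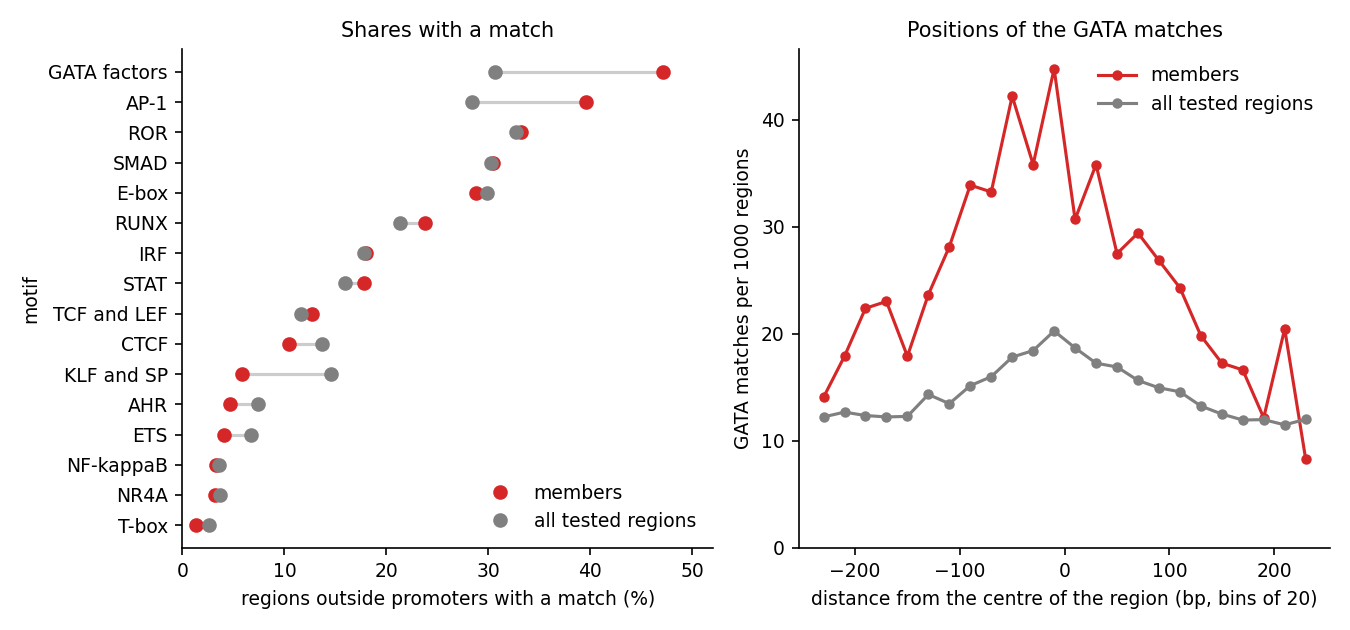
Left, share of regions outside promoters with a match for each of 16 motifs, in SI-closed regions (red) and all tested regions (grey), with the widest gaps at GATA factors (47.1% against 30.6%) and AP-1 (39.6% against 28.4%). Right, GATA matches per 1000 regions by distance from the centre in bins of 20 bp, which peak near the centre in SI-closed regions.

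Among SI-closed regions the largest fall from lung to LI lay 52.8 kb from the start of *Edn3*, the gene of endothelin-3 (chr2:174813181-174813730). It held 861 and 906 normalised counts in lung, 449 and 514 in pancreas, 193 and 223 in BM, 59.3 and 61.8 in LI, and 17.3 and 14.9 in SI, and LI was below lung by 3.84 on the log2 scale (SE 0.245, edgeR adjusted p = 1.08e-06). The next lay 8.22 kb upstream of *Il1rl1*, with 224 and 557 in lung, 28.8 and 27.5 in LI, and 16.3 and 6.11 in SI, a difference of -3.78 (SE 0.474, edgeR adjusted p = 0.000167). The lung libraries differed widely there, and without lung replicate 2 the value was -2.96. In the other direction, a region 33.4 kb upstream of *Fam107b* held 371 and 426 in LI, 125 and 105 in lung, and 63.3 and 38.7 in SI, a log2 difference of 1.81 (SE 0.272, edgeR adjusted p = 0.000579). A region 695 kb upstream of *Slit2*, the gene of an axon guidance ligand, held 151 and 118 in LI, 49.4 and 29.0 in lung, and 23.0 and 17.0 in SI, also a log2 difference of 1.81 (SE 0.357, edgeR adjusted p = 0.00371). Without lung replicate 2 the *Slit2* value was 1.47 and no longer passed.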

How the data were processed

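ATAC-seq libraries of ILC2s from 5 tissues were compared, with 2 biological replicates each. The authors checked reads with FastQC 0.11.9, aligned them to mm10 with Bowtie2 2.2.9, kept uniquely mapped reads, converted formats with SAMtools 1.8, called peaks with MACS2 2.1.1, merged peaks found in both replicates, and deposited raw read counts per region. Removal of duplicate or mitochondrial reads and any shift for Tn5 are not given in the sources used here.

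The members and gene lists were chosen with earlier results of these data known. Membership used size factors, a pseudocount of 1, and a margin of 0.3. All 49981 regions with at least 1 count were fitted with edgeR 4.0.16 (R 4.3.3, quasi-likelihood test, TMM, all 10 libraries), and p-values were adjusted by the Benjamini-Hochberg method over all of them, with a threshold of 0.05. Log2 fold changes are followed by their SE. Each region was given its nearest RefSeq coding TSS on GRCm38, which need not be the gene it acts on, and coordinates are printed as in the deposited table. Motifs were searched as exact letters with Python 3.11.15 and pysam 0.24.0. Alternatives used DESeq2 1.42.0, other scalings, a filter of 10 counts in 2 libraries, removal of loess trends in GC content and width (span 0.3), and omission of each library. The fit was tested on simulated data, where 34 of 100 regions changed 2-fold and 97 of 100 changed 4-fold were recovered for LI against lung over 49981 regions, with 5 false calls. With 2 replicates, p-values measure the spread between these pools.

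Named regions were the 12 with the widest margins, those nearest to listed genes (full values for the widest of each list), those of the 5 genes with the most members, the 2 largest changes each way between LI and lung, and the 2 on each side of the margin. Other regions whose values are given, at Il1rl1, Il18r1, Bach2, Bhlhe40, Satb1, and Ccr8, were chosen after their values were seen. A few items that this rule names are not reported here.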

Additional observations from a re-analysis of the deposited data

How the results depend on the processing

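The number of SI-closed regions was 1042 with scaling by library size in the rule, 837 with a margin of 0.6, and 2642 with the GC content and width trends taken out. It ranged from 1687 to 3806 when a library was left out, with 3533 without SI replicate 1 and 3806 without SI replicate 2. Omission of a library removes a condition from the rule, so a rise is built in, and 99.5% to 100% of the SI-closed regions were kept. TMM (1629) and a pseudocount of 5 (1556) moved the number by less than 1.5 times. With these alternatives for the rule, chosen after seeing the data for this purpose, 39.5% to 48.6% of the regions held GATA letters, 31.1% (without SI replicate 1) to 41.2% held AP-1 letters, and 15 to 18 lay nearest to Il1rl1. Promoters made up 6.96% with a window of 1000 bp on both sides. At an unadjusted p under 0.05, 236 regions were higher in LI than BM, 106 higher and 462 lower in LI than lung, 33 higher and 626 lower in LI than pancreas, 223 higher and 440 lower in BM than lung, 124 higher in BM than pancreas, and 131 higher and 382 lower in lung than pancreas. Scaling by library size gave 19 higher and 413 lower for LI against lung, 75 higher for BM against lung, and 84 higher and 66 lower for lung against pancreas. Removal of the trends gave 81 higher for LI against BM, 268 higher and 188 lower for BM against lung, 124 higher for BM against pancreas, and 214 lower for lung against pancreas. The share of all tested regions called in each of these settings is not given, so the counts show only how the numbers moved. Apart from the omission of libraries in the rule, the cause of these shifts was not tested.

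Leaving out each library in turn gave 66 to 202 higher and 177 to 330 lower for LI against BM, 4 to 60 and 99 to 343 for LI against lung, 0 to 5 and 31 to 337 for LI against pancreas, 29 to 153 and 123 to 354 for BM against lung, 26 to 84 and 172 to 489 for BM against pancreas, and 5 to 68 and 17 to 207 for lung against pancreas. With 1 library left in a tissue, it is assumed to vary like the others. DESeq2 and a filter on low counts moved no count by over 1.5 times. Same-numbered replicates deviated together in some pairs of tissues and in opposite ways in others (correlations of -0.226 to 0.196), so the numbers were not taken to pair the samples, and with the replicate block 279 regions were lower and 42 higher in LI than lung, with no count moved by over 1.5 times. Of the 4 named LI and lung differences rerun, at Edn3, Il1rl1, Fam107b, and Slit2, only the Slit2 value no longer passed, without lung replicate 2 (1.47), and the other adjusted p-values of named regions were not rerun. Raw counts at SI-closed regions had a median of 49 and 66 in the SI libraries, so low values there carry more counting error.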
